A study of Saccharomyces cerevisiae with 10 samples.

Results

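The late hours of filamentous growth, hours 7 to 10, were set against its early hours, hours 1 to 4, in budding yeast (Saccharomyces cerevisiae). The comparison used 8 of the 10 two-colour microarrays of the time course, 4 late and 4 early, with 2 odd and 2 even hours on each side, and hours 5 and 6 were kept only as middle values. In both groups the cells were wild-type diploids that had been moved from liquid SHAD, a medium with ample glucose and ammonium in which they grew in the yeast form, onto agar of the low-ammonium medium SLAD, where they grew in the filamentous form. Each array held total RNA of filamentous-form cells of 1 hour in one channel and yeast-form RNA in the other, so both groups share the yeast form as their comparator, and the labels do not say if a single yeast-form preparation was used throughout. The groups differ only in hour as far as the labels say, and the strain background and the dyes are not known here. Each value is a log2 ratio, likely filamentous over yeast form since the labels name the filamentous form as channel 1. With the direction turned, every sign below would turn with it. No hour had a second array, and no label states that hours came from separate cultures. The 4 arrays of a period are 4 different hours and not replicates of a condition. P-values and SDs thus measure only the spread between arrays, which may be technical and also holds any change with hour inside a period. The number of arrays limits the precision.

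Diploid budding yeast starved for nitrogen on a solid surface elongates, buds from one pole and keeps mother and daughter cells attached, so that chains of cells grow away from the colony. The switch is known to draw on nitrogen sensing through ammonium and amino acid permeases, on a mitogen-activated protein kinase cascade that ends in Ste12 and Tec1, and on cyclic AMP signalling. A move to poor medium is also known to hold back ribosome production and to raise stress, reserve carbohydrate and respiratory genes until cells adapt.

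Each array was centred on its own median, so that 0 is the level of the middle gene of that array. Of 6292 open reading frames, 5794 had 3 or more values on each side and were compared, 5105 of them with all 8 values. The arrays of late hours held 5802 to 6021 usable values and those of early hours 5960 to 6063. The limma fit held late against early hours and, as a second term, odd against even hours. No gene passed an adjusted p under 0.05 in it, which is 0% of those tested, and none passed 0.10. The lowest adjusted p-values were 0.138 for CPP3 and 0.176 for UBC13. At an unadjusted p under 0.05, limma gave 220 genes with late hours above early hours (3.8%) and 239 with late hours below (4.12%), and on the deposited scale, without centring, 128 above and 347 below, so that 26.9% lay above in place of 47.9%. The typical gene differed by 0.34 on the log2 scale (median size), against a median standard error (SE) of 0.38. All genes named below therefore missed the adjusted threshold, and their values are given as measured levels and differences, late minus early, from the same fit.

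By median correlation, late arrays were slightly more alike, and early arrays less alike, than a late and an early array. The median Pearson's r across genes was 0.53 between late arrays, 0.42 between early arrays and 0.49 between a late and an early array. These are descriptions across genes, which are not independent replicates. Each period held as many odd as even hours. Pairs of both odd or both even hours were thus a smaller share within a period than between periods. The medians therefore do not compare like pairs, and no conclusion on the periods is drawn from their order. Odd and even hours set arrays further apart than the periods did. In a separate limma fit with odd against even hours as its only term, 133 genes passed an adjusted p under 0.05. No gene passed for late against early hours when that was the only term. The interaction of period with odd or even hour called 0 genes at an adjusted p under 0.05, with 425 at an unadjusted p under 0.05 and a lowest adjusted p of 0.43.

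A description that needs no model asked for genes whose 4 late values all lay on one side of their early values. All late values lay above all early values in 134 genes (2.31%) and below them in 132 genes (2.28%). With a difference of at least 1 on the log2 scale, that is 2-fold, these became 47 genes above (0.811%) and 56 below (0.967%), and a standard symbol was known for 78 of the 103. On the deposited scale, without centring, the same description gave 28 genes above and 81 below, so that 25.7% of them lay above in place of 45.6%. On that scale the median difference of all genes was -0.08, against 0.02 after centring. In bulk RNA of this kind, fewer cells of a type and less RNA per cell cannot be told apart.

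ATO2, which codes for a membrane protein tied to the export of ammonium, had the largest difference downwards of all genes without overlap. Its log2 ratios were 0.28, -0.79, -0.85 and -1.16 in hours 7 to 10, against 2.62, 2.77, 1.01 and 3.32 in hours 1 to 4. The early arrays all sat well above 0, while 3 of the 4 late arrays sat below it, and the groups did not overlap. The means were -0.63 ± 0.63 in late hours and 2.43 ± 0.99 in early hours (SD, n = 4 each), a difference of -3.06 ± 0.54 (SE). CPP3, for which no role is given here, had log2 ratios of -1.40, -1.76, -1.03 and -2.37 in hours 7 to 10, against 1.08, 0.95, 0.74 and 1.07 in hours 1 to 4. Its early values lay close together, and its difference was -2.60 ± 0.32 (limma adjusted p = 0.138). UBC13, a ubiquitin-conjugating enzyme of DNA damage tolerance, was below 0 on every array, with -3.05, -2.88, -3.34 and -2.54 in hours 7 to 10, against -1.49, -0.79, -1.27 and -0.91 in hours 1 to 4. Its late mean lay below the early mean by 1.84 ± 0.26 (SE) on the log2 scale (limma adjusted p = 0.176), and hour 5, at -3.01, lay in the late range, while hour 6, at -1.95, lay between the groups.

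**Figure D1:**
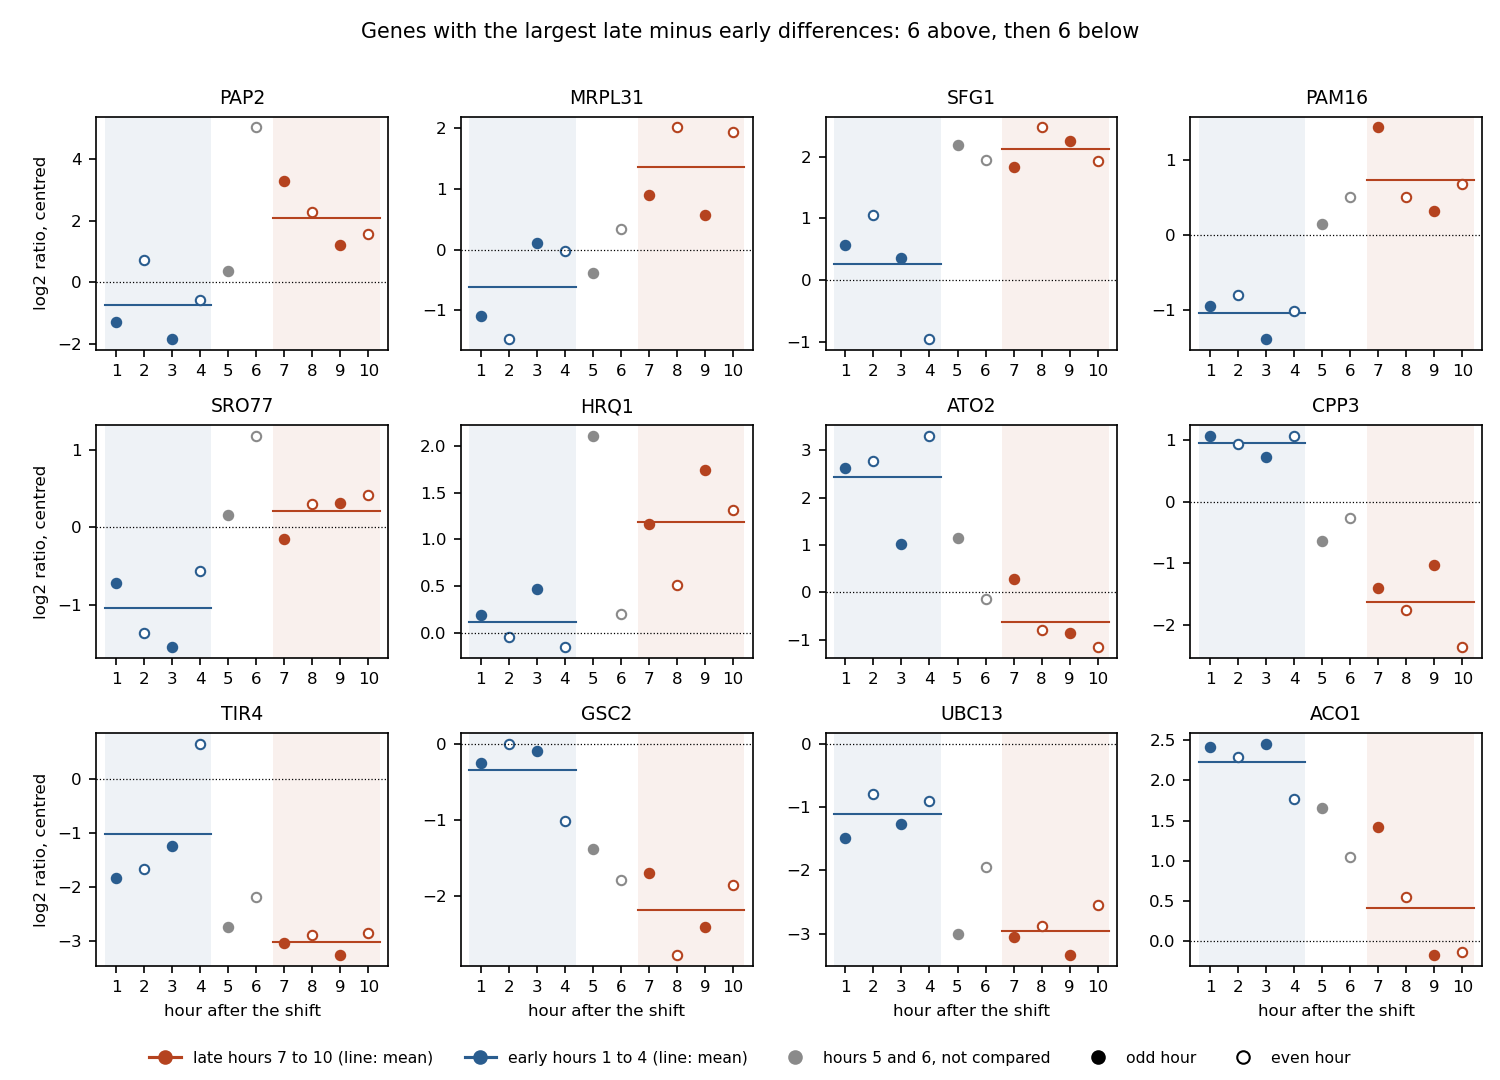
Centred log2 ratios, likely filamentous over yeast form, of 12 genes against hour after the shift, with 1 array per point: the 6 genes with the largest late minus early differences above 0 and the 6 with the largest below 0, under the rule for named genes. Red points and lines are the late hours and their mean, blue ones the early hours and their mean, and the late and early points do not overlap in any panel.

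Several genes of carbon and amino acid metabolism, chosen by their values, were high early and nearer to 0 late. ACO1, aconitase of the tricarboxylic acid cycle, had log2 ratios of 1.42, 0.55, -0.18 and -0.13 in hours 7 to 10, against 2.41, 2.29, 2.46 and 1.77 in hours 1 to 4. The early values lay close together, while the late ones were lowest at hours 9 and 10, and the difference was -1.81 ± 0.39 (SE). FUM1, the fumarase of the same cycle, had 0.42, 0.08, -0.07 and 0.11 in hours 7 to 10, against 1.34, 1.38, 1.45 and 0.71 in hours 1 to 4, with hour 4 the lowest of its early values, and a difference of -1.08 ± 0.28. AAT2, an aspartate aminotransferase, had 0.43, -0.52, -0.69 and -0.39 in hours 7 to 10, against 1.73, 1.55, 1.37 and 0.44 in hours 1 to 4. Its lowest early value, at hour 4, and its highest late value, at hour 7, were almost equal, and its difference was -1.56 ± 0.37. MPC2, a subunit of the mitochondrial pyruvate carrier, averaged 0.20 ± 0.51 in late hours and 1.40 ± 0.18 in early hours (SD, n = 4 each).

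ACH1, an acetate and coenzyme A transferase of mitochondria, was above 0 in both groups, at 2.29, 2.04, 1.48 and 1.36 in hours 7 to 10, against 3.14, 3.03, 2.52 and 2.88 in hours 1 to 4. Its difference was -1.10 ± 0.32 (SE). PDH1, an enzyme of propionate breakdown, averaged 0.99 ± 0.41 in late hours and 2.11 ± 0.72 in early hours (SD, n = 4 each). PCS60, a peroxisomal ligase, averaged 0.72 ± 0.92 in late hours and 2.41 ± 0.61 in early hours (SD, n = 4 each), with late values that ran from -0.42 at hour 9 to 1.52 at hour 7. PEX30, a membrane protein that controls peroxisome formation, averaged 0.15 ± 0.35 in late hours and 1.61 ± 0.39 in early hours (SD, n = 4 each). NCE103, a carbonic anhydrase, averaged 1.53 ± 0.41 in late hours and 2.71 ± 0.46 in early hours (SD, n = 4 each). None of these 5 genes had overlapping groups, and they too were chosen by their values. The list of peroxisome and fatty acid oxidation genes did not lean this way, with 18 of 34 above and a median difference of 0.05. Its 3 members with the smallest p lay above, by 1.24 ± 0.48 (SE) for PEX14, of the peroxisomal import docking complex, 1.12 ± 0.36 for FAA1, a fatty acyl-CoA synthetase, and 0.89 ± 0.32 for PEX10, a peroxisomal ubiquitin ligase.

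The lists of the tricarboxylic acid cycle, respiration and gluconeogenesis leaned downwards. Of 17 genes of the tricarboxylic acid cycle, 15 had late means below early means and 2 above, with a median difference of -0.34, beside 2782 below and 3012 above over all genes and a median of 0.02. Of 32 genes of the respiratory chain and ATP synthase, 30 lay below and 2 above, with a median of -0.39. No member of either list passed the adjusted threshold in limma, and 2 and 4 members had late values wholly below their early ones, beside 2.28% of all genes. The 2 members were ACO1 and FUM1, and the 4 were ATP5, ATP17, ATP2 and ATP1, all subunits of the ATP synthase. ATP5 had log2 ratios of 0.01, -0.28, -0.31 and -0.08 in hours 7 to 10, against 0.59, 0.45, 1.14 and 0.69 in hours 1 to 4, and ATP17, ATP2 and ATP1 differed by -0.66 ± 0.26, -0.61 ± 0.26 and -0.47 ± 0.26 (SE). SDH2, a subunit of succinate dehydrogenase, had -0.24, -1.63, -1.32 and -1.33 in hours 7 to 10, against 0.81, -0.30, 0.97 and -1.09 in hours 1 to 4, with overlapping groups in which each odd hour lay above the even hour that followed it. Of the glyoxylate and gluconeogenesis genes, 13 of 16 lay below, with a median of -0.59. MLS1, malate synthase, had 2.26, -0.20, 1.19 and 0.77 in hours 7 to 10, against 4.34, 1.72, 2.52 and 3.24 in hours 1 to 4, and its early hour 2 lay inside the late range. ACS1, an acetyl-CoA synthetase, averaged -2.21 ± 0.71 in late hours and -0.37 ± 1.06 in early hours (SD, n = 4 each).

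These list differences were smaller without the first arrays. The array medians of the respiratory list were -0.01, -0.26, 0.36 and -0.07 in hours 7 to 10, against 0.72, 0.47, 0.51 and -0.06 in hours 1 to 4, so that hour 4 lay within the late range. Those of the tricarboxylic acid cycle were 0.20, -0.23, 0.25 and -0.01 in hours 7 to 10, against 1.22, 0.28, 0.61 and -0.20 in hours 1 to 4, highest at hour 1. Without hour 1 the median differences became -0.18 for the respiratory list, -0.17 for the cycle and -0.22 for glyoxylate and gluconeogenesis genes. In the same order, hours 7 to 10 set against hours 3 and 4 alone gave -0.18, -0.10 and -0.37. The median of the respiratory list was -0.52 within odd hours and -0.19 within even hours, that of the cycle -0.80 within odd hours and -0.06 within even hours, and that of glyoxylate and gluconeogenesis genes -1.14 within odd hours and -0.02 within even hours. The last 2 were thus near 0 in even hours. Of 18 listed genes of the mitochondrial genome 12 were tested, and 8 of the 12 lay below, with a median of -0.14. Their array medians swung widely, with -0.79, 0.97, 1.44 and 0.65 in hours 7 to 10, against 0.07, 1.11, -1.01 and 2.06 in hours 1 to 4. With hours 8 to 10 against hours 1 to 3 the median difference turned to 0.27, so no shared direction with the nuclear genes is read from it. OLI1, an ATP synthase subunit of the mitochondrial genome, had 1.02, 2.03, 1.99 and 2.09 in hours 7 to 10, against 2.70, 2.95, 2.25 and 2.25 in hours 1 to 4.

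**Figure D2:**
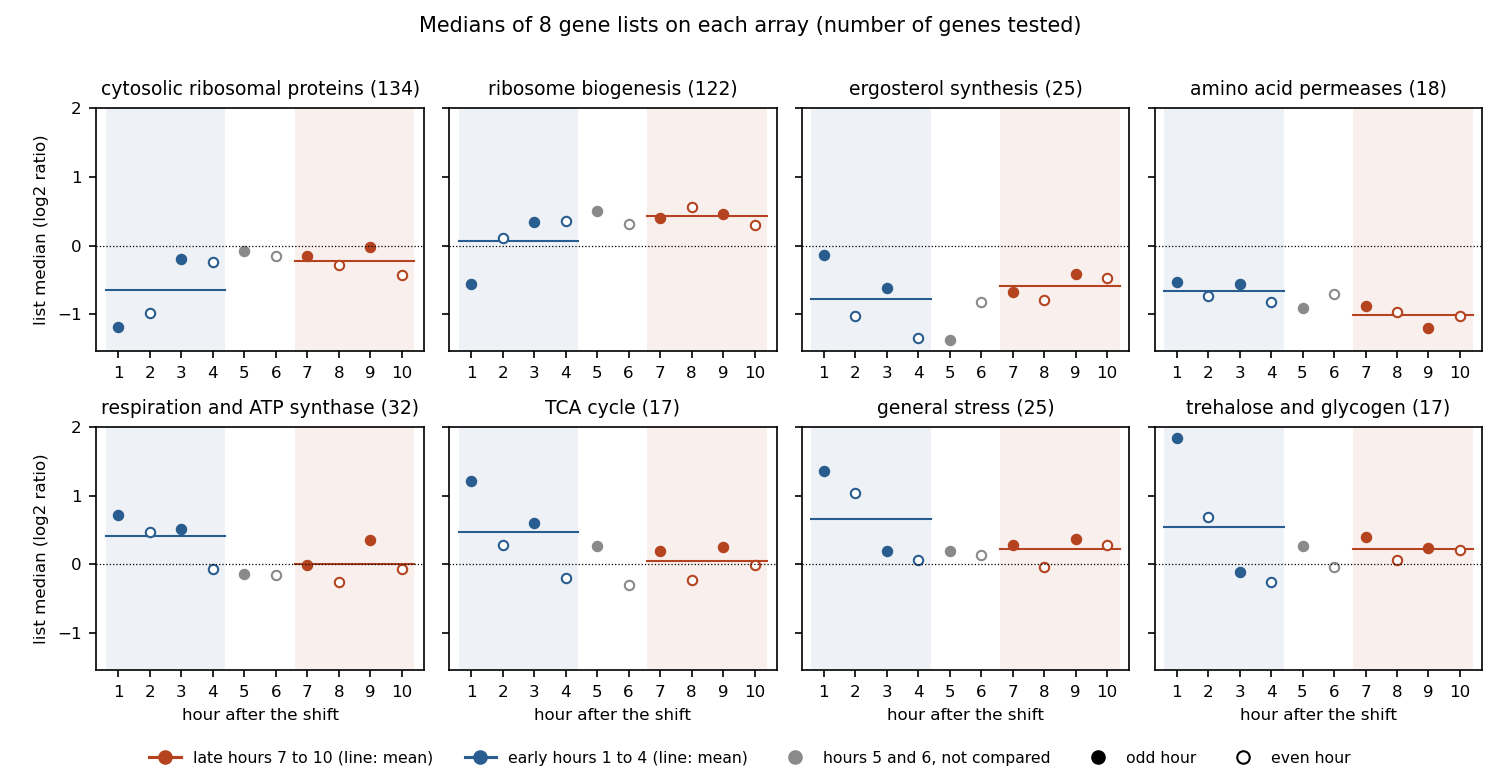
Median centred log2 ratio of 8 gene lists on each array against hour after the shift, with the number of genes tested in each list. Red points and lines are the late hours and their mean, blue ones the early hours and their mean, and in the lists of ribosomal proteins, stress, and trehalose and glycogen hours 1 and 2 stand apart from hours 3 and 4.

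Stress and reserve carbohydrate genes had their highest list medians of the 8 arrays in hours 1 and 2. Of 25 general stress genes, 18 lay below in late hours and 7 above, with a median difference of -0.42, and the array medians were 0.28, -0.05, 0.36 and 0.28 in hours 7 to 10, against 1.36, 1.03, 0.20 and 0.06 in hours 1 to 4. DDR48, a DNA damage and stress gene, had -0.81, -0.24, 0.47 and 0.42 in hours 7 to 10, against 3.18, 2.09, 1.41 and 0.26 in hours 1 to 4, with hour 4 inside the late range. YGP1, a secreted glycoprotein of starved cells, and SPI1, a cell wall protein of stationary phase, differed by -1.99 ± 0.61 and -1.64 ± 0.57 (SE), and both had overlapping groups. HSP12, a membrane-stabilising heat shock protein, lay on the other side from most of the list, with 1.96, 2.05, 0.95 and 3.62 in hours 7 to 10, against 2.16, 1.12, 1.48 and 1.34 in hours 1 to 4. For trehalose and glycogen, 13 of 17 genes lay below with a median of -0.38, on array medians of 0.40, 0.05, 0.23 and 0.21 in hours 7 to 10, against 1.85, 0.69, -0.11 and -0.26 in hours 1 to 4. Without hour 1 the median of this list was 0.07, with 9 genes above and 8 below, and against hours 3 and 4 alone it was 0.18. Leaving out hour 1 alone thus turned the sign of its median. Within odd and within even hours the general stress median was -0.61 and -0.23, and that of trehalose and glycogen -0.73 and -0.01. The general stress median was -0.08 against hours 3 and 4 alone.

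Oxidative stress defence, the proteasome and vacuolar proteases held their direction with hours 3 and 4 as the only early arrays. In oxidative stress defence, 22 of 27 genes lay below, with a median of -0.29, and -0.23 against hours 3 and 4. AHP1, a thiol peroxidase, had log2 ratios of 1.18, 1.44, 1.46 and 1.15 in hours 7 to 10, against 2.42, 2.11, 1.77 and 2.09 in hours 1 to 4, all above 0 and without overlap. CCP1, the cytochrome c peroxidase of mitochondria, had -0.28, -0.50, -0.29 and -0.44 in hours 7 to 10, against 0.58, 0.19, 0.76 and 0.04 in hours 1 to 4, below 0 in late hours and above it in early hours, a difference of -0.77 ± 0.25 (SE). Of 34 proteasome genes, 27 lay below, with a median of -0.21, and -0.20 against hours 3 and 4. The differences were small, such as -0.42 ± 0.25 (SE) for the core subunit PRE10 and -0.52 ± 0.32 for the regulatory ATPase RPT2. The list of vacuolar proteases had 10 of 12 genes below, with a median of -0.45, and -0.30 against hours 3 and 4. It also holds the protease inhibitor PBI2 and the proteases YPS1 and LAP3, which are not of the vacuole. PRC1, carboxypeptidase Y, had -1.33, -2.24, -1.85 and -1.33 in hours 7 to 10, against -0.33, -0.66, -0.93 and -1.32 in hours 1 to 4, where hours 4, 7 and 10 were almost equal, and PEP4, the vacuolar aspartyl protease that activates others, averaged -1.78 ± 0.53 in late hours and -0.63 ± 0.91 in early hours (SD, n = 4 each). Within odd hours the medians of these 3 lists, in the order given, were -0.43, -0.33 and -0.90, and within even hours -0.34, -0.19 and -0.15. Late values wholly below early ones were found for AHP1, CCP1 and TRR1 of the first list, for RPN6, PRE1 and RPN1 of the proteasome and for PRC1 of the vacuole, beside 2.28% of all genes. Apart from those with values above, these differed by -0.29 for the thioredoxin reductase TRR1 and by -0.46, -0.39 and -0.36 for the 3 proteasome subunits.

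Cell wall genes split. TIR4, a cell wall mannoprotein of anaerobic growth, had log2 ratios of -3.03, -2.88, -3.26 and -2.85 in hours 7 to 10, against -1.83, -1.67, -1.24 and 0.64 in hours 1 to 4. The late values were close together and far below 0, and of the early ones hour 4 alone was above 0. SED1, an abundant cell wall protein, had -2.46, -3.05, -2.68 and -3.31 in hours 7 to 10, against -1.60, -1.06, -1.40 and -1.86 in hours 1 to 4, below 0 throughout, and a difference of -1.40 ± 0.30 (SE). GSC2, a beta-glucan synthase subunit, had -1.69, -2.77, -2.41 and -1.84 in hours 7 to 10, against -0.24, 0.01, -0.08 and -1.01 in hours 1 to 4, near 0 in hours 1 to 3 only. CCW22, annotated as a pseudogene, averaged -3.11 ± 0.79 in late hours and -1.75 ± 0.16 in early hours (SD, n = 4 each). CDA1, a chitin deacetylase of the spore wall, averaged 0.37 ± 0.75 in late hours and 1.73 ± 0.34 in early hours (SD, n = 4 each). PIR3, another cell wall protein, had 4.54, -0.58, 3.15 and 0.01 in hours 7 to 10, against -0.47, -0.99, -0.97 and -0.82 in hours 1 to 4, where hours 7 and 9 were far above all other hours, hour 8 lay inside the early range, and hour 10 lay above it. Over the 28 mannoproteins listed, 13 lay above and 15 below, with a median of -0.02.

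Regulators of the cell cycle lay on both sides. CDC23, a subunit of the anaphase-promoting complex, had -1.77, -2.32, -2.13 and -1.79 in hours 7 to 10, against -0.47, -1.02, -1.04 and 0.20 in hours 1 to 4, and hours 5 and 6, at -2.74 and -2.30, lay within or below the late range. FKH2, a forkhead transcription factor of mitotic genes, averaged -1.68 ± 0.43 in late hours and -0.52 ± 0.24 in early hours (SD, n = 4 each), with no overlap. In the list of G2/M genes, 13 of 19 lay below, with a median of -0.22. CLB2, a mitotic cyclin, had -0.56, -0.24, -0.66 and 0.01 in hours 7 to 10, against -0.30, -0.01, 0.97 and 0.63 in hours 1 to 4. In the G1/S list 19 of 34 lay above, with a median of 0.05. CLN1, a G1 cyclin, had 0.76, 1.36, 0.10 and 2.01 in hours 7 to 10, against -0.19, -0.86, 0.29 and 0.74 in hours 1 to 4, with its highest value, 2.60, at hour 6 and 1.92 at hour 5, and a difference of 1.06 ± 0.46 (SE, limma adjusted p = 0.62). POL1, the catalytic subunit of DNA polymerase alpha, had 2.60, 1.66, 1.51 and 1.45 in hours 7 to 10, against 1.17, 0.91, 1.05 and 1.27 in hours 1 to 4 and no overlap. Histone genes had 8 of 9 above, with a median of 0.19 (0.027 without hour 8 to 0.36 without hour 1), and the one with the smallest p, HTA2, differed by 0.42 ± 0.31 (SE).

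Among genes with late values wholly above early ones, PAP2 had the largest difference of those with all 8 values. PAP2, a poly(A) polymerase of nuclear RNA surveillance, had log2 ratios of 3.29, 2.29, 1.21 and 1.59 in hours 7 to 10, against -1.30, 0.74, -1.84 and -0.56 in hours 1 to 4, a difference of 2.83 ± 0.60 (SE) or 7.13-fold. Its highest value of all, 5.03, was at hour 6. SFG1, a transcription factor of pseudohyphal growth, had 1.83, 2.48, 2.26 and 1.93 in hours 7 to 10, against 0.56, 1.05, 0.36 and -0.96 in hours 1 to 4. The late values lay close together, every late array was above every early one, and hours 5 and 6, at 2.19 and 1.96, already had the late level. The difference of SFG1 was 1.87 ± 0.45 (SE, limma adjusted p = 0.59).

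Genes of mitochondrial protein import and translation, chosen by their values, lay on both sides. PAM16, part of the motor that pulls proteins into mitochondria, had 1.44, 0.50, 0.32 and 0.68 in hours 7 to 10, against -0.95, -0.80, -1.40 and -1.01 in hours 1 to 4, above 0 in every late hour and below it in every early one. TIM44, the anchor of that motor, averaged 0.25 ± 0.13 in late hours and -0.76 ± 0.68 in early hours (SD, n = 4 each), and PNT1, a protein of mitochondrial membrane insertion, averaged 1.04 ± 0.31 in late hours and -0.03 ± 0.73 in early hours (SD, n = 4 each). SAM37, of the sorting and assembly machinery of the outer membrane, lay wholly the other way, with -0.56, 0.09 and 0.20 in hours 7, 8 and 10, against 1.90, 0.33, 0.86 and 1.10 in hours 1 to 4. MRPL31, of the large mitochondrial ribosomal subunit, had 0.90, 2.01, 0.57 and 1.94 in hours 7 to 10, against -1.10, -1.48, 0.11 and -0.03 in hours 1 to 4, and MRPS28, of the small one, differed by 1.21 ± 0.44 (SE). RSM24, also of the small subunit, lay the other way by -1.18 ± 0.53, with an early mean that rested on hour 4, at 2.90. Over the list of mitochondrial ribosomal proteins 36 of 69 lay above and 33 below, a median of 0.06 that is close to that of all genes.

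Most genes of translation and of ribosome production had late means above their early means. Of 134 genes tested in the list of cytosolic ribosomal proteins, all but 11 had late means above early means, a median difference of 0.45. That list was taken by name, and its pattern also matches RPP1, a subunit of ribonuclease P. Of 122 ribosome biogenesis genes, 98 lay above, with a median of 0.33, and of 24 subunits of RNA polymerases I and III, 19 lay above, with a median of 0.27. The ribosomal protein median was 0.61 within odd hours and 0.30 within even hours, and that of ribosome biogenesis 0.55 within odd hours and 0.18 within even hours. Translation factors had 21 of 30 above, with a median of 0.14 that turned to -0.0090 without hour 1. No member of these 4 lists passed the adjusted threshold in limma.

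The array medians of the ribosomal proteins were -0.16, -0.28, -0.03 and -0.44 in hours 7 to 10, against -1.19, -0.98, -0.19 and -0.25 in hours 1 to 4. Hours 1 and 2 alone lay below the late range, and hours 3 and 4 lay inside it. Against hours 3 and 4 alone, 66 genes lay above and 67 below, with a median of -0.00085, and without hour 1 the median was 0.23. For ribosome biogenesis the array medians were 0.40, 0.57, 0.46 and 0.30 in hours 7 to 10, against -0.56, 0.11, 0.34 and 0.35 in hours 1 to 4, with only hour 1 below 0. Its median difference was 0.12 without hour 1 and 0.03 against hours 3 and 4 alone, and that of the RNA polymerase list was 0.06 and -0.10. In these 3 lists the differences were thus larger with hours 1 and 2 among the early arrays than without them, and the alternative against hours 3 and 4 was chosen after the values were seen.

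Of the 134 ribosomal proteins, 6 had late values wholly above early ones, beside 2.31% of all genes, namely RPL6B, RPL6A, RPS7A, RPL22A, RPL42B and RPS25B. RPL6B had log2 ratios of 0.69, 1.06, 0.91 and 0.91 in hours 7 to 10, against -0.63, -0.25, 0.49 and 0.22 in hours 1 to 4, a difference of 0.94 ± 0.32 (SE), and its paralogue RPL6A differed by 0.77 ± 0.32. Cytosolic ribosomal protein genes of budding yeast often come in near-identical pairs, and whether the spots told them apart was not tested. RPL33B had 0.57, -0.63, 0.51 and -0.73 in hours 7 to 10, against -0.69, -1.29, 0.18 and -2.29 in hours 1 to 4, where both even hours lay below both odd hours within each period, and RPS28A, another ribosomal protein, differed by 0.94 ± 0.33 with the same alternation. In ribosome biogenesis 3 of 122 genes had late values wholly above early ones, a share near that of all genes. DRS1, a helicase of the large subunit's assembly, had 0.72, 0.14, 0.20 and 1.90 in hours 7 to 10, against -0.56, -0.36, -0.50 and -2.34 in hours 1 to 4, RPF2, an assembly factor of the same subunit, differed by 0.96 ± 0.33, and UTP6, of the small subunit's processome, differed by 1.46 ± 0.57 (SE). MAK3, an N-terminal acetyltransferase subunit that the list took in by its name, had 3.55, 4.41, 2.83 and 0.53 in hours 7 to 10, against -0.22, 0.83, 0.24 and -0.20 in hours 1 to 4.

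SUP45, the factor that ends translation at stop codons, had 0.73, 0.92, 1.19 and 1.47 in hours 7 to 10, against -0.16, 0.54, -0.21 and 0.00 in hours 1 to 4, with its highest value at hour 10, and a difference of 1.03 ± 0.29 (SE). TEF4, an elongation factor subunit, was the other translation factor without overlap, at 0.56, and NIP1, a subunit of an initiation factor, averaged 1.42 ± 0.41 in late hours and 0.49 ± 0.79 in early hours (SD, n = 4 each) with overlap. RPC17, a subunit of RNA polymerase III, had 1.21, 0.94, 0.53 and 0.84 in hours 7 to 10, against -0.48, 0.32, -0.07 and 0.48 in hours 1 to 4, and RPA49, of RNA polymerase I, had 0.88, 0.89, 0.94 and 0.29 in hours 7 to 10, against -1.65, 0.23, 0.68 and -2.11 in hours 1 to 4. Both lay above the early mean in late hours, but hour 3 of RPA49 lay inside its late range.

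Several lipid and sterol genes, chosen by their values, sat below 0 early and were closer to 0 late. ITR1, the myo-inositol transporter, had log2 ratios of -1.42, -1.12, -0.98 and -0.98 in hours 7 to 10, against -2.36, -2.29, -1.58 and -2.36 in hours 1 to 4. Every late value lay above every early one, and all were below 0. ERG11, the lanosterol demethylase of ergosterol synthesis, had -1.14, -1.40, -0.98 and -0.94 in hours 7 to 10, against -1.57, -2.27, -1.83 and -2.63 in hours 1 to 4, a difference of 0.96 ± 0.29 (SE). OLE1, the fatty acid desaturase, had -0.40, -0.25 and 0.10 in hours 7, 8 and 9, against -0.82, -1.50, -1.60 and -1.72 in hours 1 to 4, and FAS2, a subunit of fatty acid synthase, had -0.55, -0.49, -0.66 and -0.24 in hours 7 to 10, against -1.54, -1.38, -1.02 and -1.64 in hours 1 to 4. CDS1, an enzyme of phospholipid synthesis, averaged -0.02 ± 1.00 in late hours and -1.22 ± 0.58 in early hours (SD, n = 3 each).

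Over the ergosterol list 19 of 25 genes lay above, with a median of 0.27, and this list kept its direction without hours 1 and 2, at 0.48. It did not keep it within odd hours, where the median was -0.08, against 0.54 within even hours. The second member without overlap, ERG29, had 3.38, 0.42, 1.88 and -0.52 in hours 7 to 10, against -1.02, -1.05 and -0.60 in hours 2, 3 and 4, high at hours 7 and 9. ERG6, the sterol methyltransferase, showed the alternation of hours, with 1.48, -0.81, 1.84 and -0.42 in hours 7 to 10, against 1.02, -1.12, 0.75 and -0.92 in hours 1 to 4, positive in every odd hour and negative in every even one. Hypoxic genes had 10 of 17 above, with a median of 0.18 that was 0.017 without hour 1, and held OLE1 and DAN4, a cell wall mannoprotein, above (0.67 for DAN4) and TIR4 below.

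Amino acid permeases were the only 1 of 35 lists whose array medians did not overlap between the periods. The array medians were -0.89, -0.97, -1.20 and -1.03 in hours 7 to 10, against -0.53, -0.73, -0.56 and -0.83 in hours 1 to 4, all below 0 and lower in each late hour than in any early hour, and 12 of 18 genes lay below, with a median difference of -0.30. If hours were exchangeable, the medians of 4 late and 4 early arrays would separate completely in 0.029 of cases. Odd and even hours differed here, and some lists share members, such as DIP5 and CAN1, so that share need not hold. The number of lists expected to separate with no difference was not computed. A count of 1 in 35 lists thus shows neither a difference nor its absence. The median difference of the permeases was -0.58 within odd hours and -0.22 within even hours. BAP2, which takes up branched-chain amino acids, had -4.70, -4.61, -5.60 and -4.22 in hours 7 to 10, against -4.36, -3.07, -1.98 and -4.02 in hours 1 to 4, where hour 10 lay above hour 1. DIP5, the permease for glutamate and aspartate, had 1.13, 1.04, 0.86 and 0.73 in hours 7 to 10, against 1.71, 1.45, 1.62 and 1.54 in hours 1 to 4, without overlap and above 0 throughout, and CAN1, the arginine permease, was the other gene wholly below, at -0.43. Against the list, PUT4, the proline permease, had 2.08, 1.96 and 3.69 in hours 8, 9 and 10, against 1.90, -0.68, -0.47 and -0.32 in hours 1 to 4, and AGP2, a plasma membrane regulator of carnitine and polyamine uptake, had 1.99, 3.06 and 2.54 in hours 7, 8 and 9, against -0.53, 0.82, 1.30 and -0.31 in hours 1 to 4. PUT4 at hour 1 lay only just below its late values, and its middle hours were 1.80 at hour 5 and -1.76 at hour 6. Of the 18 permeases, 2 thus lay wholly below and 2 wholly above, beside 2.28% and 2.31% of all genes.

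Genes under nitrogen catabolite repression, which are held down by good nitrogen sources, had no common direction, with 16 of 29 above and a median of 0.13 (-0.27 within odd hours and 0.25 within even hours). The array medians were 0.47, 0.63, 0.73 and 0.79 in hours 7 to 10, against 0.66, 0.05, 0.53 and 0.77 in hours 1 to 4, above 0 on every array and lowest at hour 2. GAP1, the general amino acid permease, had 1.50, 1.96, 1.96 and 1.78 in hours 7 to 10, against 2.42, 1.47, 1.65 and 1.37 in hours 1 to 4, a difference of 0.07 ± 0.31 (SE) on a level above 0 in both periods. DAL80, a repressor of nitrogen genes, had 3.62, 3.42, 3.99 and 2.38 in hours 7 to 10, against 4.84, 1.80, 0.85 and 2.61 in hours 1 to 4, and its early hours spanned a wider range than its late ones. MEP2, the ammonium permease and sensor, had 0.44, 0.58, 0.76 and 1.44 in hours 7 to 10, against 1.80, 1.49, 1.04 and 1.12 in hours 1 to 4, a difference of -0.56 ± 0.33.

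Amino acid biosynthesis had 34 of 57 genes below, with a median of -0.11. LYS1 and LYS2, both of lysine synthesis, differed by -0.82 ± 0.29 and -0.75 ± 0.28 (SE) without overlap. PRO1 and TRP5 also lay wholly below, at -0.71 and -0.56, while BAT1 and ARO2 lay wholly above, at 0.45 and 0.80. Of the 57 genes, 4 were thus wholly below and 2 wholly above, beside 2.28% and 2.31% of all genes. LYS1 had 0.11, 0.12, -0.65 and -0.02 in hours 7 to 10, against 0.57, 0.96, 0.77 and 0.53 in hours 1 to 4. Of the sulfur and methionine genes 14 of 22 lay below, with a median of -0.23, while MET6, methionine synthase, lay above by 1.13 ± 0.47, with -1.41, -1.49, -1.21 and -0.95 in hours 7 to 10, against -3.51, -2.29, -1.25 and -2.53 in hours 1 to 4. In the iron regulon 20 of 28 lay below, with a median of -0.20 (-0.32 without hour 8 to -0.095 without hour 9). FIT2, a cell wall protein that holds iron carriers, had -1.05, -1.94, -2.51 and -2.33 in hours 7 to 10, against 1.20, 1.33, -0.29 and -1.18 in hours 1 to 4, and hour 4 lay inside its late range. FRE6, a vacuolar metal reductase, FTH1, a vacuolar iron transporter, and SMF3, a metal transporter of the vacuole, had late values wholly below early ones, beside 2.28% of all genes, with differences of -0.77, -0.72 and -0.50.

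The list of filamentous growth genes leaned to neither side. Of 39 regulators and effectors, 19 lay above and 20 below, with a median of -0.02 and no member without overlap. With 2.31% of all genes wholly above and 2.28% wholly below, a count of 0 in a list of this size is near the background. SFG1, described before and wholly above, is not in the list. FLO11, the adhesin of filaments, had log2 ratios of 1.88, -0.60, 1.04 and 0.15 in hours 7 to 10, against 0.08, 0.96, 0.11 and 0.32 in hours 1 to 4. Its late values ran from hour 8, below every early value, to hour 7, above every one, and its difference was 0.25 ± 0.50 (SE). TEC1 had -0.77, 1.31, -0.25 and 1.82 in hours 7 to 10, against 0.59, 3.43, -0.64 and 1.09 in hours 1 to 4, and STE12, its partner, had -0.76, -0.25, -0.42 and -0.05 in hours 7 to 10, against -0.63, 2.62, -0.75 and -0.16 in hours 1 to 4, both with their highest value at hour 2. PHD1, another transcription factor of filamentation, differed by -0.55 ± 0.40, and KSS1, the kinase upstream of Ste12, had 2.50, 2.79, 2.66 and 2.36 in hours 7 to 10, against 1.50, 2.31, 2.36 and 2.89 in hours 1 to 4, above 0 throughout. DIG2, a repressor of Ste12, had 0.24, 0.73, 0.71 and 1.44 in hours 7 to 10, against -0.52, -0.34, 0.23 and 0.39 in hours 1 to 4, and NRG1, a repressor of adhesin and glucose-repressed genes, averaged -0.17 ± 0.39 in late hours and 1.47 ± 2.17 in early hours (SD, n = 4 each), with hour 4 at 4.36. CTS1, the chitinase that separates daughter cells, differed by -0.16 ± 0.29, and the list of cell separation and mitotic exit had 10 of 17 genes below, with a median of -0.16.

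Lists of genes tied to other yeast cell types were looked at, since a diploid culture can hold sporulating cells and should hold no mating ones. The haploid and mating list also names genes that are not limited to mating cells, such as STE14 and STE24. Its median is thus no measure of the number of such cells. Of 26 haploid and mating genes 16 lay above, with a median difference of 0.22 and array medians of -0.41, -0.19, -0.06 and -0.44 in hours 7 to 10, against -0.27, -0.40, -0.30 and -0.18 in hours 1 to 4, which overlap. FUS1, a gene of mating cell fusion, had 3.11, 0.78, 1.09 and 0.21 in hours 7 to 10, against -0.27, -0.97, 0.65 and -0.55 in hours 1 to 4, high at hour 7, and MFA1, a pheromone gene, had -2.50, -1.48 and -0.90 in hours 7, 9 and 10, against -0.32, -1.06 and 2.71 in hours 1, 3 and 4 where measured. Of 34 meiosis and sporulation genes 20 lay above, with a median of 0.25 (0.47 within odd and -0.03 within even hours). SPO22 and HOP2, both of meiotic chromosome pairing, lay wholly above, at 1.30 and 0.55, and the spore wall enzyme CDA1 and the sporulation gene SPS4 wholly below, at -1.36 and -1.21. Their part in the other differences was not tested.

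The lists not yet described lay on both sides of the median of all genes. Glycolysis and fermentation had 9 of 20 genes above and a median of -0.03, and hexose transporters 6 of 16 and -0.08. Chaperones had 14 of 26 above and 0.07, although SSA4, a heat-induced chaperone, lay wholly above with -0.07, 1.43, -0.28 and -0.02 in hours 7 to 10, against -0.68, -1.48 and -0.65 in hours 1, 2 and 3. Phosphate genes had 11 of 17 above and a median of 0.21, which was -0.0032 without hour 10 and -0.15 within odd hours, and autophagy genes 22 of 34 below and -0.19. ATG34, a receptor of selective autophagy, lay wholly below at -1.67, and ATG21, a lipid-binding protein of the same process, wholly above at 0.75.

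Leaving out 1 array moved most list medians. Of the 35 lists, 11 had a median that turned sign without some 1 hour, and 33 had one that turned or moved by more than 1.5 times. Amino acid permeases and the proteasome did neither. The lists that turned were trehalose and glycogen, translation factors, phosphate, nitrogen catabolite repression, filamentous growth, peroxisome and fatty acid oxidation, mitochondrial ribosomal proteins, mannoproteins, G1/S, glycolysis and fermentation, and hexose transporters. The nitrogen catabolite repression median ran from -0.089 without hour 2 to 0.15 without hour 7. Among lists that kept their sign, the median of ergosterol genes ran from 0.12 without hour 4 to 0.38 without hour 1, that of RNA polymerase subunits from 0.060 without hour 1 to 0.48 without hour 4 and that of G2/M genes from -0.34 without hour 8 to -0.17 without hour 1. The median of amino acid biosynthesis ran from -0.22 without hour 1 to -0.028 without hour 3, that of sulfur and methionine genes from -0.43 without hour 10 to -0.095 without hour 3 and that of autophagy genes from -0.31 without hour 1 to -0.077 without hour 2. General stress genes ran from -0.60 without hour 3 to -0.24 without hour 1, vacuolar proteases from -0.71 without hour 10 to -0.38 without hour 1 and oxidative stress defence from -0.45 without hour 10 to -0.29 without hour 2, none of them close to 0. The mitochondrial genome's genes ran from -0.47 without hour 2 to -0.051 without hour 1, haploid and mating genes from 0.098 without hour 9 to 0.39 without hour 7, meiosis and sporulation genes from 0.15 without hour 2 to 0.32 without hour 3, and cell separation from -0.29 without hour 7 to -0.025 without hour 9.

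**Figure D3:**
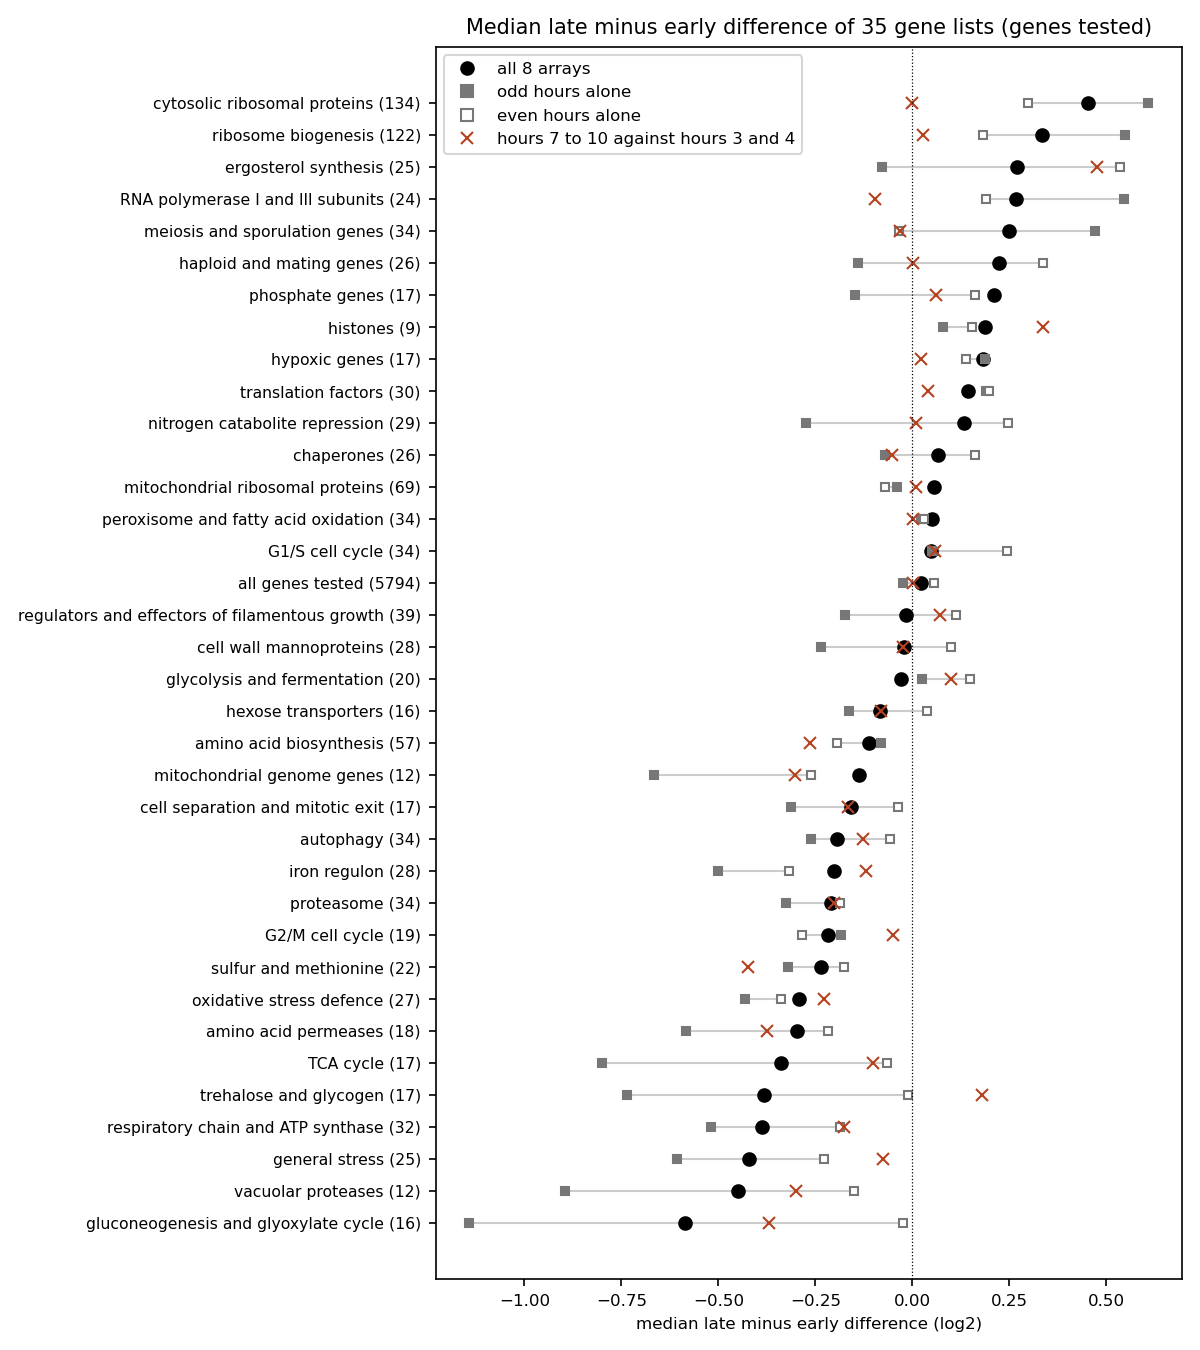
Median late minus early difference (log2) of 35 gene lists and of all genes tested, with the number of genes in brackets. Black circles are all 8 arrays, filled and open squares are odd and even hours alone, and crosses are hours 7 to 10 against hours 3 and 4, which bring ribosomal proteins close to 0 and carry trehalose and glycogen across it.

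The 103 genes with a 2-fold difference and no overlap were then sorted by which period lay farther from the array median. Of the 47 genes above, 32 had the late mean farther from 0 and 15 the early mean. Of the 56 genes below, 32 had the early mean farther from 0 and 24 the late mean. These 4 classes are called late-high, early-low, early-high and late-low here. SFG1 and PUT4 were late-high, ITR1 and PAM16 early-low, ATO2 and ACO1 early-high, and UBC13 and TIR4 late-low. The mean of hours 5 and 6, which took no part in the choice, lay between the 2 period means in 81 of the 103 genes. By class this was 25 of the 32 late-high, 11 of the 15 early-low, 25 of the 32 early-high and 20 of the 24 late-low genes. Choosing genes for wide separation of the periods makes a middle mean between them likely. The share over other genes was not computed, so these counts do not show a gradual change. All 103 had the same sign within odd and within even hours, which the lack of overlap fixes.

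**Figure D4:**
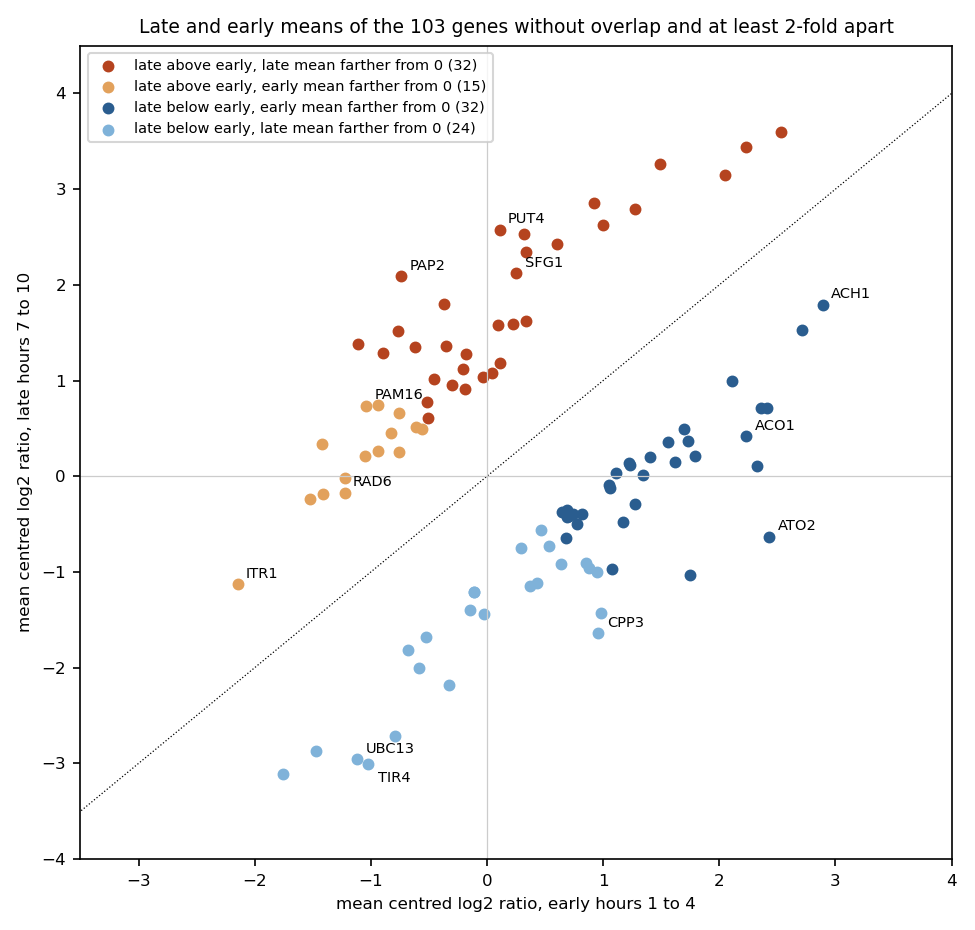
Mean centred log2 ratio in the late hours (y axis) against that in the early hours (x axis) for the 103 genes whose groups did not overlap and differed at least 2-fold, 1 point per gene. Colours give the direction and which period mean lay farther from 0, and the dotted line marks equal means.

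Other genes in these classes had the following levels. RAD6, a ubiquitin-conjugating enzyme of DNA repair, was among the early-low ones, with -0.32, -0.21, -0.02 and -0.14 in hours 7 to 10, against -0.89, -1.26, -1.41 and -1.35 in hours 1 to 4, and its 4 late values all lay above its early ones and below 0. SRO77, a protein of exocytosis, and DUO1, of the spindle's microtubule ring, were early-low as well, with differences of 1.26 ± 0.32 and 1.38 ± 0.37 (SE). HRQ1, a DNA helicase, and RFC5, a subunit of the clamp loader of replication, were late-high, at 1.07 ± 0.30 and 1.54 ± 0.61. SKO1, a repressor of osmotic stress genes, was late-high at 1.63 ± 0.52, and both RFC5 and SKO1 had 3 late arrays.

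Among early-high genes, GRX7, a glutaredoxin, averaged 0.03 ± 0.44 in late hours and 1.11 ± 0.58 in early hours (SD, n = 4 each), and SNQ2, a drug efflux pump, averaged -0.38 ± 0.16 in late hours and 0.65 ± 0.51 in early hours (SD, n = 4 each). RNA15, an mRNA cleavage factor, averaged 0.02 ± 0.59 in late hours and 1.34 ± 0.34 in early hours (SD, n = 4 each). Among late-low genes, PMC1, the vacuolar calcium pump, averaged -0.75 ± 0.29 in late hours and 0.29 ± 0.24 in early hours (SD, n = 4 each), MCH4, a protein of the monocarboxylate permease family, averaged -1.15 ± 0.63 in late hours and 0.37 ± 0.28 in early hours (SD, n = 4 each), and CWH41, a glucosidase of glycoprotein processing, differed by -1.55 ± 0.53 with hour 2 at 2.19. AAD14 and AAD15, of a family of near-identical aryl-alcohol dehydrogenase genes, both lay below, at -1.10 and -1.15. For 25 of the 103 genes no standard symbol was known, and they are not described one by one.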

How the data were processed

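The deposited values are log2 ratios of the 2 channels of each array, 1 value per open reading frame and hour. The authors' scanner, dyes, background correction, normalization, filters and array design are not stated in the labels, and without spot intensities the signal over background cannot be given. The base of the logarithm follows from the numbers themselves: with base 2, 97.3% of the ratios were whole ten-thousandths within 0.02 of a step, against 4.57% with base e and 4.79% with base 10. Which scale the authors centred on is not known.

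Every one of the 62920 deposited values ends in the digit 3 at the 7th decimal, and 3324 of them (5.28%) are 0.0000003. None equals 0, so values under 1e-06 in size were taken as the zeros and set to missing. Each array was then centred on its median (0.12 to 0.39 on the deposited scale). Systematic names were matched to RefSeq's gene table of assembly R64, used for names, lengths and overlaps only, and 5792 of 6292 matched.

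Genes with at least 3 values on each side were fitted with lmFit and eBayes (limma 3.58.1, R 4.3.3), with late against early hours and odd or even hour as terms, 5 residual degrees of freedom, two-sided tests and Benjamini-Hochberg adjustment over 5794 genes at 0.05. Differences, their SE and p-values come from this fit, so that with a missing value a difference need not equal that of the printed means. SDs are over the arrays of a period. The code was tested on simulated arrays, and figures were drawn with matplotlib 3.10.9.

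The comparison, the 35 gene lists and the named genes were chosen with earlier results of these data known. The rule for named genes took up to 15 genes in each direction with the largest differences among those with all 8 values, no overlap, a standard symbol and, since none passed the adjusted threshold, an unadjusted p under 0.01 (13 and 15 genes), the 3 members of each list with the smallest p, and 12 chosen genes. Members without overlap and genes of the 2-fold classes are named besides, chosen after their values were seen. Alternatives covered scaling, zeros, filters, variance models, array weights, other choices of hours and leaving out each hour. Hours 3 and 4 as the only early arrays, and the counts by unadjusted p, were added after the data were seen. Promoter motifs were not analysed here.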

Additional observations from a re-analysis of the deposited data

Results flagged for a closer look

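In a group of 4 arrays, 1 value can stand apart from the other 3. Dixon's test at its 95% level picked out 14 of 326 such groups, and chance picks about 1 in 20. In genes with separate groups these were ITR1, with -1.58 at hour 3, against -2.36 to -2.29 in the other 3 early hours, CCW22, with -4.30 at hour 8, against -2.76 to -2.64 in the other 3 late hours, and PUT4, with 1.90 at hour 1, against -0.68 to -0.32 in the other 3 early hours. FUM1 had 0.71 at hour 4, against 1.34 to 1.45 in the other 3 early hours, OLI1 had 1.02 at hour 7, against 1.99 to 2.09 in the other 3 late hours, and DRS1 had -2.34 at hour 4, against -0.56 to -0.36 in the other 3 early hours. RPF2 had 1.76 at hour 8, against 0.57 to 0.70 in the other 3 late hours, and SSA4 had 1.43 at hour 8, against -0.28 to -0.02 in the other 3 late hours. In genes with overlapping groups, RPA49 had 0.29 at hour 10, against 0.88 to 0.94 in the other 3 late hours, and NRG1 had -0.75 at hour 9, against 0.00 to 0.05 in the other 3 late hours. Of list medians, sulfur and methionine genes had 0.25 at hour 3, against -0.54 to -0.41 in the other 3 early hours, and chaperones had 0.65 at hour 8, against 0.18 to 0.24 in the other 3 late hours. G2/M genes had -0.50 at hour 9, against -0.15 to -0.09 in the other 3 late hours, and also -0.56 at hour 3, against 0.14 to 0.27 in the other 3 early hours.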

How the results depend on the processing

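No gene passed the adjusted threshold in either direction under any of the alternatives, nor did the interaction call any. The lists below kept the sign of their median under all 24 alternatives, 5 of which cannot move a gene with all 8 values: amino acid permeases, oxidative stress defence, proteasome, vacuolar proteases, respiratory chain, tricarboxylic acid cycle, gluconeogenesis, general stress, iron regulon and ribosome biogenesis. So did amino acid biosynthesis, sulfur and methionine, hypoxic genes, cell separation, G2/M, histones and autophagy. Several came near 0 under some alternative, such as gluconeogenesis at -0.024 within even hours and hypoxic genes at 0.017 without hour 1. Genes without overlap and at least 2-fold apart numbered 47 above and 56 below, 134 and 132 with no minimum difference, and 28 above and 81 below on the deposited scale. Leaving out 1 hour loosens that description, and gave 54 to 91 above and 49 to 136 below, with the highest numbers without hour 4 (91 and 136) and others past 1.5 times without hour 3 (87 and 92), hour 7 (72 and 90) and hour 10 (96 below). Counts at an unadjusted p under 0.05 in limma were 220 above and 239 below, 128 above and 347 below on the deposited scale, and 138 to 271 above and 147 to 320 below with 1 hour left out, lowest without hour 8 (138 above) and hour 9 (147 below).

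Most named genes were picked on these same arrays for large differences or small p. In those without overlap, the lack of overlap fixes the sign in any subset of the hours. A kept sign there is thus no evidence of robustness. Under the 19 alternatives that can move a gene with all 8 values, 2427 of 2453 values of named genes kept their sign and 26 turned. Within odd hours these were CDC37 at -0.13, GAP1 at -0.30, HSP12 at -0.37, HTZ1 at -0.24 and STE12 at 0.10. Within even hours they were FLO11 at -0.86, GLK1 at 0.075, KSS1 at -0.027, PHD1 at 0.032 and PHO89 at -0.18. With hours 8 to 10 against hours 1 to 3 they were FLO11 at -0.12, HXT7 at 0.078, POL12 at 0.29 and PRM1 at -0.22. Against hours 3 and 4 alone they were CTS1 at 0.027, KSS1 at -0.049, STE12 at 0.090 and TEC1 at 0.30. FLO11 was at -0.021 with array weights and -0.14 without hour 7 (up to 0.62 without hour 8), STE12 at 0.069 without hour 2 (down to -1.05 without hour 4), and GAP1 at -0.027 on the deposited scale, -0.039 with quantile normalization, and -0.0069, -0.022 and -0.039 without hours 3, 4 and 8 (up to 0.30 without hour 1). The causes were not tested. No paired analysis was possible because each hour had 1 array and no label pairs late with early hours.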

Other observations

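Among the genes without a symbol whose late values lay wholly above their early ones at least 2-fold, 5 shared one annotated length, 5269 bases in R64. They are YDR098C-B, YDR210W-D, YDR316W-B, YER138C and YOL103W-B, and they were picked after their values were seen, so no test is given. Of all 23 tested frames of that length, 22 had late means above early means, beside 3012 of all 5794 genes, and 7 had no overlap, beside 2.31% of all genes. The 23 include the 5 whose values led to the choice, and they are frames of one length that were not shown to be 23 separate measurements. The median difference was 0.77. The median log2 ratio of the 23 frames was 2.76, 2.93, 2.92 and 2.87 in hours 7 to 10, against 1.57, 2.29, 2.36 and 2.74 in hours 1 to 4, with 3.14 and 3.04 in hours 5 and 6. The level was above 0 on every array, lowest at hour 1 and highest at hour 5. YDR210W-D had 3.15, 4.19, 3.38 and 3.68 in hours 7 to 10, against 1.87, 2.48, 2.74 and 3.04 in hours 1 to 4, and YOL103W-B had 2.74, 3.96, 3.35 and 3.69 in hours 7 to 10, against 1.51, 2.31, 2.73 and 2.37 in hours 1 to 4.

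The same frames differed strongly between odd and even hours in some cases. YLR157C-B had 2.85, -0.43, 2.94 and -0.07 in hours 7 to 10, against 2.02, -0.92, 2.25 and -0.91 in hours 1 to 4, above 0 in odd and below 0 in even hours, while YML039W, of the same length, had 2.90, 2.93, 3.26 and 3.15 in hours 7 to 10, against 1.55, 2.26, 2.05 and 2.48 in hours 1 to 4 with no such alternation. YML045W, the 1 frame of this length with a late mean below its early mean, had 2.98, -1.33, 2.54 and -0.73 in hours 7 to 10, against 1.57, 1.78, 2.80 and -0.29 in hours 1 to 4. Against hours 3 and 4 alone, the median difference of the frames was 0.49, a difference of means. Whether their spots measured separate transcripts was not tested.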
